A study of Homo sapiens with 5 samples.

Results

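Receptor tyrosine kinases are membrane proteins that bind a ligand outside the cell, pair up, and phosphorylate tyrosines of each other and of bound adaptors, from which the RAS-ERK and PI3K-AKT pathways start. In lung adenocarcinoma they are drug targets, and several of them can carry growth signals when EGFR is blocked. The genes described here are 10 receptors other than EGFR, chosen by name: ERBB2, ERBB3, MET, MST1R, IGF1R, INSR, AXL, FGFR1, EPHA2 and DDR1. They are 10 of 61220 GENCODE v44 genes with a listed transcript, of which 13492 reached 10 reads in 2 or more libraries and were tested. All 10 passed that minimum. Their 199 listed transcripts were summed per gene and also kept apart.

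The RNA came from NCI-H1975 and HCC827, 2 established human lung adenocarcinoma cell lines grown in culture without a drug named in the labels. One RNA preparation of each line was used, and the labels give synthetic sequin spike-in transcripts as added to both, mix A for NCI-H1975 and mix B for HCC827. The tables go against this for HCC827: they hold 5475, 4678, 2830, 1269 and 0 sequin reads from pure NCI-H1975 to pure HCC827. The preparations were combined by mass into 1 library for each ratio, written as NCI-H1975 to HCC827: the pure 100:0 and 0:100, the even 50:50, and 75:25 and 25:75 on either side of it. Then cDNA was amplified by PCR and read on a nanopore PromethION flow cell. The spread about a trend therefore covers libraries made from the same 2 RNAs, not separate cultures. In bulk RNA, the number of cells that express a gene and the RNA per cell cannot be told apart.

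The libraries held 2932250 to 4058751 assigned reads. The mean length of the transcripts to which reads were assigned fell in each step from 2579 bases at 100:0 to 2180 bases at 0:100. Of 10 epithelial and lung markers, 9 were tested and 8 of them rose, where 23.5% of all genes tested rose. EPCAM was the exception (slope 0.02), and SFTPC had 0 reads in every library. The keratin KRT7 had 7125 reads at 100:0 and 12918 at 0:100, and the lung transcription factor NKX2-1 had 140 and 295. Of 11 markers of blood, endothelium and fibroblasts, PTPRC, CD3E and DCN had 0 reads in every library, and 3 reached the minimum: CD68 (192 and 254 reads in the pure libraries), CD14 (10 and 0) and ACTA2 (15 and 1). CD68 rose (slope 0.80), ACTA2 fell (-2.55) and CD14 did not pass (-2.54), and the part of such markers in the receptor values was not tested.

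All 10 receptors had a slope along the series that passed the 0.05 threshold on the adjusted p-value, 5 upward and 5 downward. Across all 13492 genes tested 45.8% passed, so a call is common in this series and the direction and size say more than the call. The receptors were chosen with earlier results of these data known, so the share of them called is no test of the receptors as a set. Slopes are log2 changes fitted over 0 to 100% HCC827 after TMM scaling, and p-values come from the edgeR quasi-likelihood test with Benjamini-Hochberg adjustment over all genes. ERBB2, ERBB3, MET, EPHA2 and DDR1 were higher in HCC827, with slopes from 0.53 to 1.00. IGF1R, MST1R, INSR, FGFR1 and AXL were higher in NCI-H1975, with slopes from -0.76 to -2.39. The median slope was -0.11 over the 10 receptors and -0.03 over all genes tested. Summed, the 10 receptors took 0.0495% of assigned reads at 100:0 and 0.0464% at 0:100, without TMM scaling. The mixed libraries had between 0.0479% and 0.0501%. After TMM scaling, the same sum was 427 CPM (defined below) at 100:0 and 533 CPM at 0:100. It was 451, 499 and 539 CPM at 75:25, 50:50 and 25:75, so the direction of the sum depended on the scaling.

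Levels are given in CPM, that is, counts scaled to a common library size with TMM factors, and compared only between libraries of the same gene. Gene coordinates are those of GENCODE v44 on GRCh38. Scaling by library totals alone moved the median slope of all genes from -0.03 to -0.44. Under that scaling the calls were 2 upward and 5 downward: no receptor changed sign, and ERBB2, MET and EPHA2 no longer passed.

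**Figure D1:**
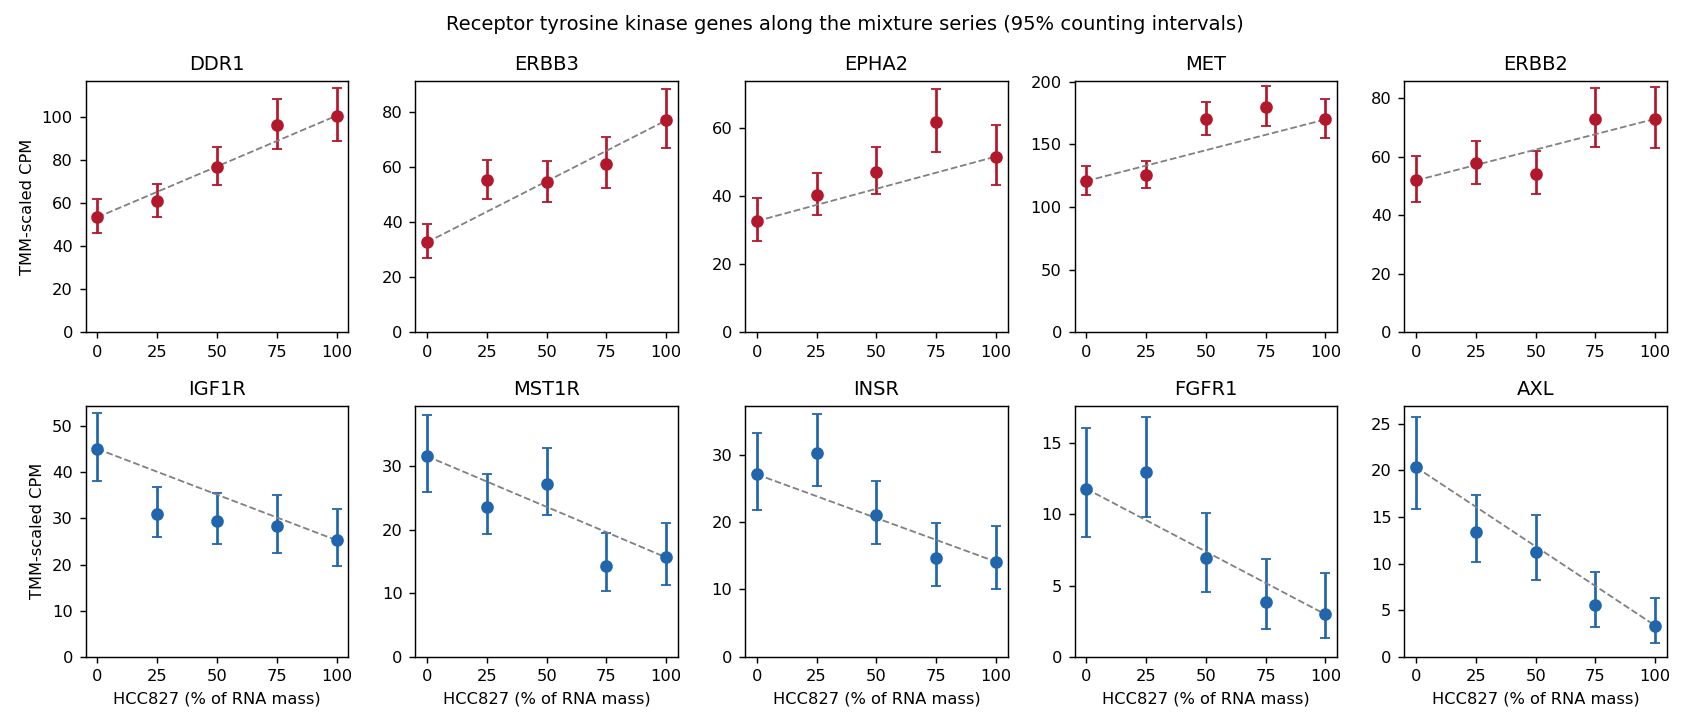
Each panel plots the TMM-scaled CPM of 1 gene (vertical axis, from 0) against the HCC827 share of RNA mass (horizontal axis, percent) in the 5 libraries, with exact Poisson 95% intervals of the read counts. The dashed line joins the 2 pure libraries, and the 5 genes in red end higher at 100% HCC827 while the 5 in blue end lower, AXL going from 20.3 to 3.35 CPM.

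Of the ERBB family the set holds ERBB2, which has no known ligand and acts as the partner of the other family members, and ERBB3, which binds neuregulins and has a nearly inactive kinase domain. ERBB3 (ENSG00000065361.17, chromosome 12, 56076799 to 56103505, plus strand) had 32.7 CPM at 100:0, then 55.1, 54.4, 61.2, and 77.0 at 0:100. The 100:0 library was lowest and the 0:100 library highest, and the 3 mixed libraries had overlapping counting intervals. ERBB3 was 2.35-fold higher in the pure HCC827 library (95% counting interval 1.86 to 2.99). The fitted slope was 0.99 ± 0.20 (SE), at an adjusted p of 0.00145 by quasi-likelihood in edgeR. The 75:25 value was 126% of what mixing the pure libraries by mass gives. The counting interval of its 238 reads lay wholly above that mixed value. Here and below, the mixed value is taken as exact, without the counting error of the pure libraries (111 and 207 reads for ERBB3). Without the 100:0 library the slope was 0.65 and still passed.

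ERBB2 (ENSG00000141736.14, chromosome 17, 39687914 to 39730426, plus strand) had 51.8, 57.7, 54.1, 72.7 and 72.9 CPM in the same order. Its 3 libraries with at least 50% NCI-H1975 lay below the other 2. The pure libraries differed 1.41-fold (95% counting interval 1.14 to 1.73). Its slope of 0.53 ± 0.16 (SE) had an adjusted p of 0.0187 by quasi-likelihood in edgeR. This call was lost without the 25:75 library (slope 0.46), without the 0:100 library (0.55), under DESeq2's Wald test (0.54) and under library totals (0.12). MIEN1 (1142 reads) and PGAP3 (253) overlap ERBB2 (1040) in antisense, and whether the counting used the strand is not given in the sources used here.

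No transcript of ERBB2 passed on its own. The reads were spread over ERBB2-201 (29.0% of the gene's reads), ERBB2-204 (28.3%), ERBB2-202 (27.0%) and ERBB2-206 (11.3%, annotated for nonsense-mediated decay), with slopes of 0.69, 0.32, 0.37 and 0.23. In ERBB3 the full-length ERBB3-201 rose, with 42, 125, 112, 91 and 111 reads and slope 1.20 ± 0.27 (SE) and adjusted p = 0.00229 by quasi-likelihood in edgeR over transcripts. ERBB3-213, which is 3289 bases long against 5919, had 41, 70, 57, 47 and 49 reads and a slope of 0.40 (adjusted p = 0.285 in the same edgeR test). ERBB3-201 took 37.8% of ERBB3 reads at 100:0 and 53.6% at 0:100, but ERBB3 was not called in the test of isoform usage (adjusted p = 1.00, diffSpliceDGE in edgeR).

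Skipping of ERBB2 exon 16 gives a receptor form known to dimerize through a freed cysteine, so the exon is shown, with the exon in capitals and 12 bases of each neighbouring exon in lower case. It is 48 bases long and lies at chr17:39719787-39719834 (GRCh38, plus strand, GENCODE v44).
ERBB2 exon 16: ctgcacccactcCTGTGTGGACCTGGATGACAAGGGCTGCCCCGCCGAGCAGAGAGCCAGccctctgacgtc
All 888 reads on transcripts that decide this exon were assigned to ones that hold it, and the 1 listed transcript that skips it had 0. Assignment to a transcript does not show that a read covers the exon, which lies 2436 bases from the 3' end, so these counts set no limit on skipping. The same holds for every exon share given here.

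MET, the receptor of hepatocyte growth factor, and MST1R, the receptor of macrophage-stimulating protein, are the same kind of receptor, cut by a protease into an alpha and a beta chain. They moved in opposite directions. MET (ENSG00000105976.16, chromosome 7, 116672196 to 116798377, plus strand) had 121, 125, 170, 180 and 170 CPM. The 100:0 and 75:25 libraries were low, and the other 3 were high with overlapping counting intervals. The pure HCC827 library was 1.41-fold higher (95% counting interval 1.23 to 1.61). The fitted slope was 0.61 ± 0.15 (SE), at an adjusted p of 0.00574 by quasi-likelihood in edgeR. MET was above the straight mixing line at 50:50 (117% of it) and 25:75 (114%). The counting intervals of these 663 and 515 reads did not reach the line, which was taken as exact.

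MST1R (ENSG00000164078.14, chromosome 3, 49887002 to 49903873, minus strand) had 31.5, 23.6, 27.2, 14.3 and 15.6 CPM. The 2 libraries richest in HCC827 were lowest, and the 3 others were higher. MST1R was 2.02-fold lower in the pure HCC827 library (95% counting interval 1.40 to 2.96, from 107 and 42 reads). Its slope of -1.06 ± 0.29 (SE) had an adjusted p of 0.00921 by quasi-likelihood in edgeR.

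MET-202 held 77.1% of MET reads and rose, with slope 0.59 ± 0.17 (SE) and adjusted p = 0.0118 by quasi-likelihood in edgeR over transcripts. MET-201, with 15.5%, had 65, 95, 107, 73 and 60 reads and a slope of 0.22 (adjusted p = 0.537 in the same edgeR test). It differs from MET-202 by 54 added bases in frame within the extracellular part, shown first below. MET exon 14 codes for the juxtamembrane stretch to which the ubiquitin ligase CBL binds, and its skipping is a known oncogenic change. Skipping of MST1R exon 11 gives a known constitutively active form. Capitals mark the alternative bases and lower case 12 bases on each side.
MET insertion: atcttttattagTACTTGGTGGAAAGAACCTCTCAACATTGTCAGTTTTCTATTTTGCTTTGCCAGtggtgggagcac
MET exon 14: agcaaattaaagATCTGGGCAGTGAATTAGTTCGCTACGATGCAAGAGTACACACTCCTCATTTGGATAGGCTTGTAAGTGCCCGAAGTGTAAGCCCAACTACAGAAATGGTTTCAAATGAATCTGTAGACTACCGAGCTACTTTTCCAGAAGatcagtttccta
MST1R exon 11: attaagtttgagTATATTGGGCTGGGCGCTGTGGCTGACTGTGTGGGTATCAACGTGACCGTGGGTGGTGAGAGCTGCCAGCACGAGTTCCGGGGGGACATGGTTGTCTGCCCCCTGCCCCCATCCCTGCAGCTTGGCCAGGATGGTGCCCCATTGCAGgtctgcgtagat
The insertion lies at chr7:116759337-116759390, MET exon 14 at chr7:116771849-116771989 (both plus strand) and MST1R exon 11 at chr3:49895961-49896107 (minus strand), GRCh38.

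Nearly all deciding reads were assigned to transcripts with these exons. Exon structures are those of GENCODE v44, where MET-202 has 6822 bases against 6635 in the deposited table. For MET exon 14, 2395 of 2405 deciding reads (99.6%) were on holding transcripts. The only listed transcript that skips it, MET-205, is 475 bases long, and the exon lies 3398 bases from the 3' end, so reads of a long mRNA that skips the exon had no transcript of their own and the share does not measure skipping. For MST1R exon 11, 395 of 397 reads were on holding transcripts, and both reads of the skipping MST1R-202 were in the 100:0 library. MST1R-201 held 79.4% of MST1R reads and fell, with slope -0.95 ± 0.27 (SE) and adjusted p = 0.0108 by quasi-likelihood in edgeR over transcripts. MST1R-203, annotated for nonsense-mediated decay, had 15, 14, 18, 1 and 4 reads and a slope of -1.81 (adjusted p = 0.0804 in the same edgeR test).

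The insulin and IGF1 receptors are close relatives that bind insulin, IGF1 and IGF2 and signal through the docking proteins IRS1 and IRS2. Both fell with the HCC827 fraction. IGF1R (ENSG00000140443.15, chromosome 15, 98648539 to 98964530, plus strand) had 45.1, 31.0, 29.5, 28.3 and 25.3 CPM, in order over the series, as in 28.5% of all genes tested. The 100:0 library stood above the other 4, whose counting intervals overlapped. The pure HCC827 library was 1.78-fold lower (95% counting interval 1.33 to 2.41). The fitted slope was -0.76 ± 0.22 (SE), at an adjusted p of 0.0123 by quasi-likelihood in edgeR. The slope was -0.36 without the 100:0 library (edgeR quasi-likelihood test, adjusted p = 0.386), -0.33 with the length trend removed (0.247) and -0.73 under DESeq2's Wald test (0.0561), and none of these passed.

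INSR (ENSG00000171105.14, chromosome 19, 7112255 to 7294414, minus strand) had 27.1, 30.3, 21.0, 14.7 and 14.1 CPM. The 100:0 and 75:25 libraries were highest with overlapping counting intervals, and 25:75 and 0:100 lowest. INSR was 1.92-fold lower in the pure HCC827 library (95% counting interval 1.30 to 2.88). Its slope of -1.17 ± 0.28 (SE) had an adjusted p of 0.00438 by quasi-likelihood in edgeR. The transcripts of both genes are long, with read-weighted lengths of 12091 bases for IGF1R and 9132 for INSR. The 500 tested genes closest in length had median slopes of -0.42 and -0.40, and with the length trend removed INSR had a slope of -0.80 and still passed.

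INSR exon 11 separates isoform B, which holds it, from isoform A, which lacks it and binds IGF2 more tightly. The main IGF1R transcripts differ by 3 bases at a pair of neighbouring splice acceptor sites. Both are shown with the alternative bases in capitals, INSR exon 11 at chr19:7150497-7150532 (minus strand) and the IGF1R bases at chr15:98929558-98929560 (plus strand), GRCh38.
INSR exon 11: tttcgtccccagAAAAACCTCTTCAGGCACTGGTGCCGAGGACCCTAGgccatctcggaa
IGF1R insertion: tccaggccaaaaCAGgatatgaaaact
INSR-201, with exon 11, took 186 of 381 deciding reads (48.8%), and its share was 50.0%, 45.0%, 54.9%, 48.8% and 45.7% along the series, with overlapping Wilson intervals. IGF1R-216 had 275 reads and IGF1R-217 269. These near-even splits lie 6673 bases (INSR) and 8407 bases (IGF1R) from the 3' end, and how reads that do not reach the alternative bases were divided is not given in the sources used here. The transcripts INSR-201 and INSR-202 both fell, each with a slope of -1.30. IGF1R-216 fell, with a slope of -1.09 (edgeR quasi-likelihood test over transcripts, adjusted p = 0.00426), and IGF1R-217 had a slope of -0.50 (0.208).

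AXL, a receptor for GAS6 that is known as a mesenchymal marker and as a bypass of EGFR inhibition, fell. AXL (ENSG00000167601.12, chromosome 19, 41219223 to 41261766, plus strand) had 69, 58, 44, 16 and 9 reads, or 20.3, 13.4, 11.3, 5.59 and 3.35 CPM. The values ran in order and each mixed value was within its counting interval of the mixing line. AXL was 6.07-fold lower in the pure HCC827 library (95% counting interval 3.02 to 13.8). The fitted slope was -2.39 ± 0.36 (SE), at an adjusted p of 0.000197 by quasi-likelihood in edgeR. AXL-201 took 182 of its 196 reads and AXL-202 the other 14.

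FGFR1, a receptor for fibroblast growth factors, was the least sampled of the 10, with 142 reads in all. FGFR1 (ENSG00000077782.23, chromosome 8, 38400215 to 38468834, minus strand) had 40, 56, 27, 11 and 8 reads, or 11.8, 12.97, 6.93, 3.84 and 2.97 CPM. The 100:0 and 75:25 libraries were high and the 25:75 and 0:100 libraries low. FGFR1 was 3.96-fold lower in the pure HCC827 library (95% counting interval 1.83 to 9.80). Its slope of -2.17 ± 0.47 (SE) had an adjusted p of 0.00225 by quasi-likelihood in edgeR. LETM2 overlaps it in antisense with 129 reads.

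The FGFR1 reads were spread over 16 transcripts, and none could be tested. The 3 with most were FGFR1-203 (24 reads), FGFR1-243 (18, annotated for nonsense-mediated decay) and FGFR1-238 (15). Exon 3, which codes for the first immunoglobulin-like domain, was held by 101 of 130 deciding reads (77.7%), and by 83 of 98 (84.7%) over protein-coding transcripts alone. Its share in the 0:100 library rested on 7 reads. Exon structures are those of GENCODE v44, where FGFR1-203, which holds exon 3, has 4442 bases against 6054 as deposited. FGFR1-211 and FGFR1-214 also differ in length.

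EPHA2, a receptor of ephrin-A ligands on neighbouring cells, and DDR1, a receptor of fibrillar and basement membrane collagens, both rose. EPHA2 (ENSG00000142627.13, chromosome 1, 16124337 to 16156069, minus strand) had 32.7, 40.3, 47.2, 61.9 and 51.7 CPM. The 25:75 library was highest, at 132% of the mixing line, with its counting interval wholly above the line, taken as exact. The pure HCC827 library was 1.58-fold higher (95% counting interval 1.22 to 2.05). The fitted slope was 0.78 ± 0.21 (SE), at an adjusted p of 0.00800 by quasi-likelihood in edgeR. Without the 100:0 library the slope was 0.62 and did not pass (edgeR quasi-likelihood test, adjusted p = 0.0639), and without the 0:100 library it was 1.20. EPHA2-201 took 784 of 785 reads.

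DDR1 (ENSG00000204580.14, chromosome 6, 30876421 to 30900156, plus strand) had 53.3, 60.7, 76.7, 96.1 and 100 CPM, in order over the series. Each mixed value was within its counting interval of the line by mass. The pure libraries differed 1.88-fold (95% counting interval 1.55 to 2.29). Its slope of 1.00 ± 0.14 (SE) had an adjusted p of 0.000135 by quasi-likelihood in edgeR. In every alternative run, fits without 1 library included, DDR1 kept its sign and its call.

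DDR1 exon 12 separates form b of the receptor, which holds it, from form a, which lacks it, and it adds a juxtamembrane stretch in frame. The exon is in capitals, at chr6:30895404-30895514 (GRCh38, plus strand).
DDR1 exon 12: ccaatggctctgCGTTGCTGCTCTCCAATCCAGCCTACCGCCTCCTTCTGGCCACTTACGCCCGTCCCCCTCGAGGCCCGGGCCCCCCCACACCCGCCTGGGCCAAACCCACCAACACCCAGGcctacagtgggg
Most DDR1 reads were on transcripts that skip it. It was held by 196 of 1265 deciding reads (15.5%), with 15.6%, 12.02%, 15.0%, 15.9% and 18.9% along the series and overlapping Wilson intervals. DDR1-224, DDR1-240 and DDR1-226, which skip it, held 27.9%, 27.5% and 25.7% of DDR1 reads, and DDR1-225, which holds it, 6.84%. All 5 DDR1 transcripts tested rose, with slopes from 0.66 (DDR1-240) to 1.52 (DDR1-223), with 1.41 for DDR1-225.

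**Figure D2:**
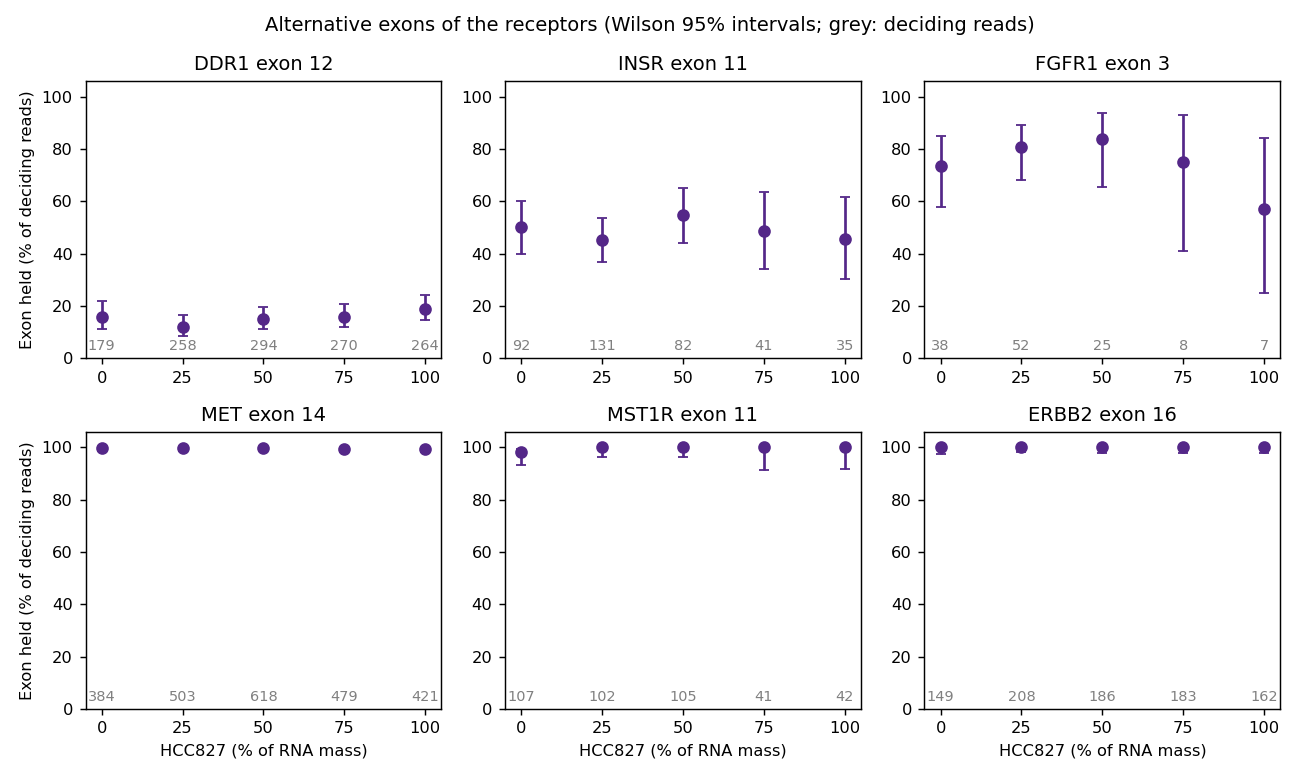
Share of deciding reads assigned to transcripts that hold an alternative exon (vertical axis, percent) against the HCC827 share of RNA mass (horizontal axis, percent), with Wilson 95% intervals and the number of deciding reads in grey. DDR1 exon 12 stayed between 12.02% and 18.9%, INSR exon 11 between 45.0% and 54.9%, and exons of MET, MST1R and ERBB2 near 100%. The shares are of reads assigned to transcripts, not of reads seen to cross the exon.

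At transcript level, 76 of the 199 listed transcripts had reads and 25 could be tested. Of these, 8 rose and 5 fell past the 0.05 threshold by quasi-likelihood in edgeR, where 33.6% of all 31758 transcripts tested passed. DESeq2's Wald test called 5 of the 25, and edgeR without the 100:0 library also called 5. Isoform usage was tested for 7 of the receptors with edgeR's diffSpliceDGE and called 0, where 0.429% of all 7456 genes tested were called. None of the 7 had an unadjusted Simes p under 0.05, and the gene-level F test also called 0.

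**Figure D3:**
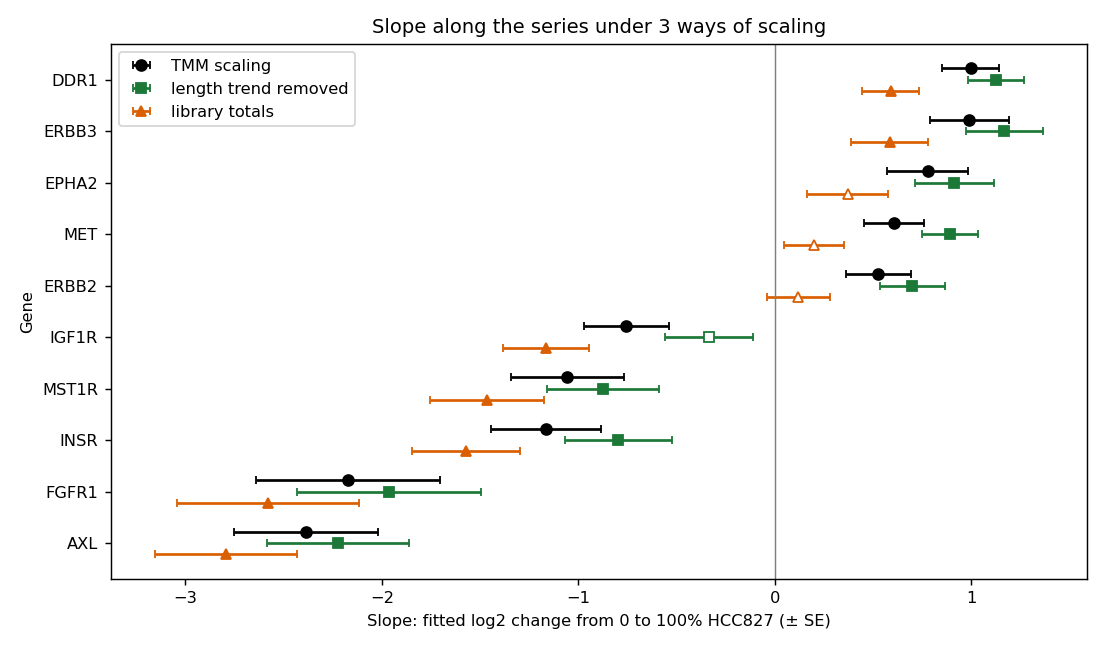
Slope of each receptor (horizontal axis, fitted log2 change from 0 to 100% HCC827, ± SE) under TMM scaling, with the trend of expression on transcript length removed, and under library totals. Filled symbols have an adjusted p-value under 0.05. No slope changes sign between the scalings. IGF1R is open with the length trend removed (-0.33), and EPHA2, MET and ERBB2 are open under library totals.

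The genes around each receptor were read from the same fit, as the nearest 2 tested protein-coding genes on each side, at any distance. Genes that were not tested can lie in between. Start to start, these neighbours lay 16.8 to 50.8 kb from ERBB2, 26.0 to 420 kb from AXL and 139 to 385 kb from MET. Of 40 such neighbours 13 rose, 8 fell and 19 did not pass, against 23.5% and 22.3% of all genes that rose and fell. Around ERBB2, all 4 neighbours rose: STARD3 (slope 0.83 ± 0.17), PGAP3 (2.05 ± 0.39), MIEN1 (1.28 ± 0.15) and GRB7 (1.80 ± 0.17), each with a larger slope than ERBB2 itself. Around MET, which rose, CAV1 (-1.11 ± 0.13), CAV2 (-0.42 ± 0.13) and CAPZA2 (-0.87 ± 0.16) fell and ST7 did not pass (0.10 ± 0.35). Around AXL, which fell, CYP2S1 (3.74 ± 0.48), EGLN2 (2.47 ± 0.25) and HNRNPUL1 (1.87 ± 0.20) rose and TGFB1 did not pass (0.69 ± 0.36). These values are SE from the edgeR quasi-likelihood fit, and the difference between a receptor and its neighbours was not itself tested.

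For the other receptors the surroundings were mixed. DDR1 and ERBB3 each had 3 neighbours that rose, with FLOT1 (1.63) near DDR1 and RPL41 (1.06) near ERBB3 the steepest. With the length trend removed, the slope of RPL41 was 0.72 and that of RPS26, also near ERBB3, went from 0.59 to 0.33. Both kept their calls. TACC1 (-1.28) and PLEKHA2 (-1.58) fell beside FGFR1, SYNM (-1.96) and NR2F2 (-0.46) beside IGF1R, and RBM6 (-1.04) beside MST1R. No neighbour of INSR or EPHA2 passed. Without the 0:100 library the calls of STARD3, CAV2, NR2F2, RBM6 and GTF2H4, a neighbour of DDR1, were lost. That of GTF2H4 was lost in 7 of 13 alternatives. Library totals also removed the calls of VARS2 beside DDR1 and of RPS26 and PA2G4 beside ERBB3. CAV2 also lost its call without 75:25, and NR2F2 without 100:0, under DESeq2's Wald test and with the length trend removed.

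**Figure D4:**
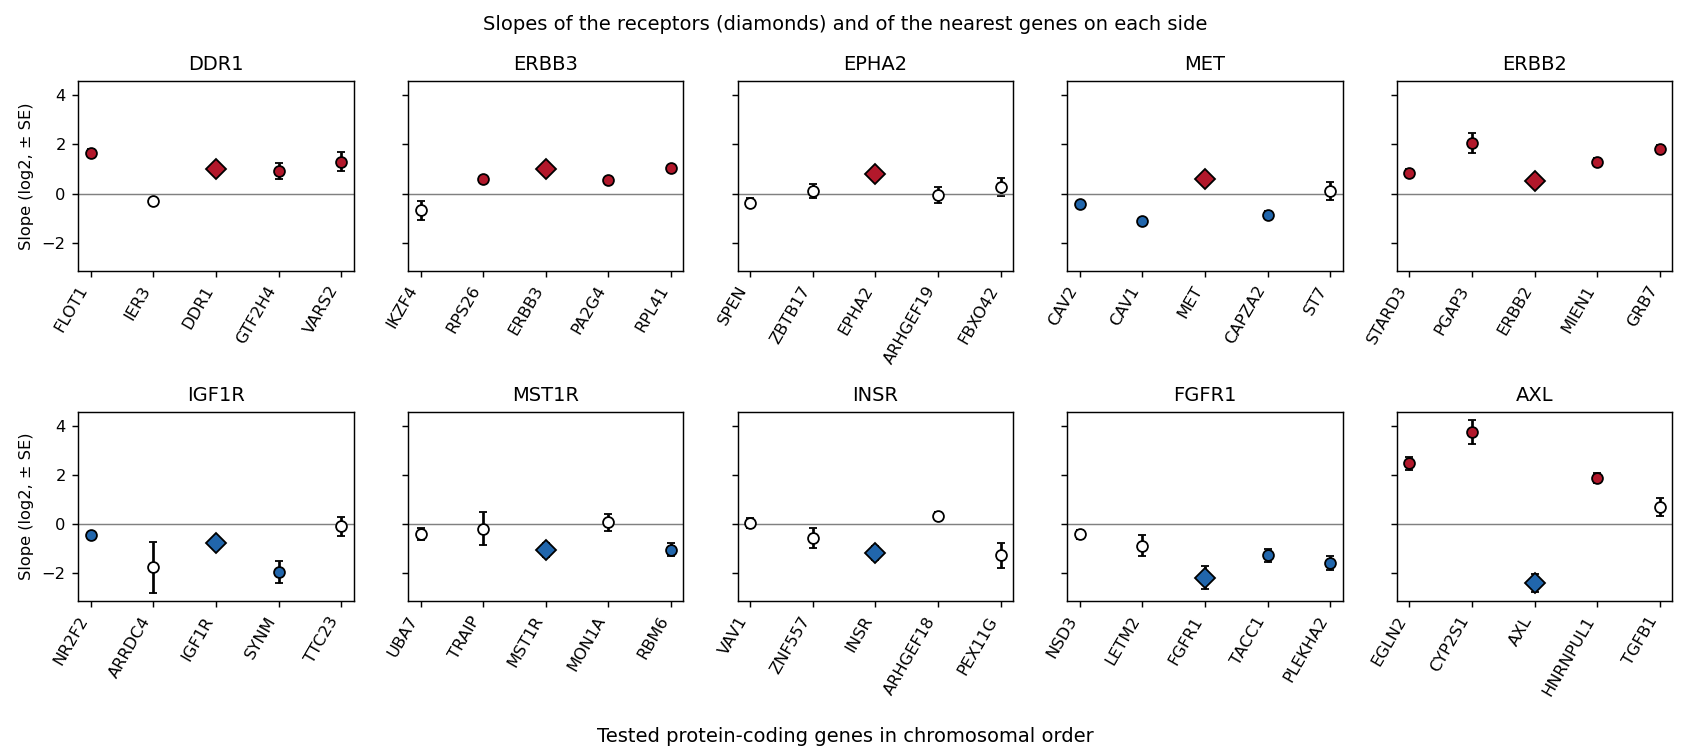
Slope (vertical axis, log2 from 0 to 100% HCC827, ± SE) of each receptor (diamond) and of the nearest 2 tested protein-coding genes on each side in chromosomal order (circles); red rose, blue fell, white did not pass. AXL lies at -2.39 among neighbours from 0.69 to 3.74, and ERBB2 at 0.53 is the lowest of its row.

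Of the 47 remaining human receptor tyrosine kinases other than EGFR, 18 were tested, 11 had no read in any library and 4 passed (22.2%, against 45.8% of all genes tested). The 10 receptors were chosen with earlier results known, so this share is not set against theirs. AATK (slope 1.06 ± 0.29) and FGFR4 (1.39 ± 0.50, from 9 and 28 reads in the pure libraries) rose. RYK (-0.96 ± 0.25) and EPHB4 (-0.37 ± 0.13) fell (SE, edgeR quasi-likelihood test). The TAM receptors related to AXL did not pass: TYRO3 had a slope of -0.03 (42, 54, 39, 49 and 26 reads) and MERTK 0.59 (30, 25, 27, 23 and 33 reads). The other ERBB receptor, ERBB4, had 2 reads in the whole series. Of these calls only that of RYK was kept in all alternatives. EPHB4 lost its call in 7 of 13, FGFR4 in 4 of 12 and AATK in 2 of 13, and without the 100:0 library the FGFR4 slope was 0.53. Under library totals 0 rose and 4 fell.

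Of 35 ligands of the 10 receptors, 13 were tested, of which 2 rose and 4 fell (46.2%, against 45.8% of all genes tested). The neuregulin NRG1, a ligand of ERBB3, had 39, 30, 28, 45 and 27 reads and a slope of 0.34 (edgeR quasi-likelihood test, adjusted p = 0.581). HGF, the MET ligand, had 1, 4, 9, 7 and 7 reads, and MST1, the MST1R ligand, 7 to 10 reads per library, both too few to test. For AXL, the ligand PROS1 fell with 187, 196, 141, 95 and 67 reads and a slope of -1.09 ± 0.18, and GAS6 had a slope of -0.75 ± 0.41 and did not pass. EFNA1, an ephrin that binds EPHA2, rose with a slope of 0.46 ± 0.17 (edgeR quasi-likelihood test, adjusted p = 0.0450), a call kept in 2 of 13 alternatives and lost in 11, DESeq2's Wald test and every fit without 1 library among them. IGF1, IGF2 and INS had 13, 4 and 0 reads in the series.

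Collagens, which bind DDR1, made up the steep end of the ligand list. COL1A1 had 532 reads at 100:0 and 19 at 0:100, 22.2-fold lower. COL1A2 went from 96 to 0 reads and COL5A1 from 168 to 0, at least 25.4-fold and 44.4-fold lower with the 0 taken as 3 reads. COL4A2, a basement membrane collagen, went from 0 to 79 reads, at least 33.2-fold higher. All 4 passed the edgeR quasi-likelihood test, and COL4A2 and COL5A1 did not pass DESeq2's Wald test. COL4A1 and COL3A1, also on the list, had 12 reads and 1 read in the series and were not tested. The filter of 10 reads in every library left 9 of the ligands, of which 2 passed, and DESeq2's Wald test called 3 of 13.

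Among 24 tested adaptors and proximal effectors, 5 rose and 8 fell (54.2%, against 45.8% of all genes tested). GRB7, an adaptor that binds ERBB2 and whose gene lies next to it, went up from 27.7 to 107 CPM (slope 1.80 ± 0.17). PIK3R2, a regulatory subunit of PI3K, and the kinase SRC rose by slopes of 1.21 ± 0.16 and 1.28 ± 0.18. CRK (-0.92 ± 0.15), GRB10, which binds the insulin and IGF1 receptors (-0.89 ± 0.15), and the phosphatase PTPN11 (-0.82 ± 0.16) fell (SE, edgeR quasi-likelihood test). IRS1, the docking protein of INSR and IGF1R, also fell with a slope of -0.61 ± 0.19, and IRS2 had a slope of -0.30 and did not pass. The steepest slopes of the list went the other way. GRB14 (2.92 ± 0.48, from 4 and 43 reads in the pure libraries) and GAB2 (2.52 ± 0.35) rose. The IRS1 call was lost without the 0:100 library, under DESeq2's Wald test and with the length trend removed. With the length trend removed, 7 adaptors rose and 5 fell.

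All 17 negative regulators were tested, and 5 rose and 5 fell (58.8%, against 45.8% of all genes tested). LRIG1, a membrane protein that lowers ERBB and MET levels, had 45, 35, 13, 5 and 3 reads, was 11.9-fold lower in the pure HCC827 library (95% counting interval 3.82 to 59.8) and fell with a slope of -3.77 ± 0.53. SH3KBP1 (-1.49 ± 0.13), an endocytic adaptor of CBL, and the deubiquitinase USP8 (-0.87 ± 0.20) also fell. The phosphatase PTPRF (0.93 ± 0.13), the ubiquitin ligase CBLC (1.53 ± 0.24) and EPS15 (1.01 ± 0.25) rose (SE, edgeR quasi-likelihood test). EPS15 lost its call without the 100:0 library and under library totals, and USP8 with the length trend removed. CBL and CBLB did not pass, with slopes of -0.38 and 0.32. Library totals gave 2 rising and 6 falling.

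Of 8 tested proteases and inhibitors that process receptors or their ligands, 4 rose and 1 fell (62.5%). Of the IGF-binding list and the co-receptors, given below, 66.7% and 50% passed, against 45.8% of all genes tested. The matriptase gene ST14, whose product activates HGF, rose from 74.5 to 267 CPM (slope 1.67 ± 0.16), together with its inhibitors SPINT1 (1.32 ± 0.14) and SPINT2 (1.03 ± 0.12), and the sheddase ADAM10 fell (-0.96 ± 0.18). The fourth that rose was HPN, hepsin (1.06 ± 0.41), whose call was lost in 10 of 13 alternatives. FURIN, which cleaves the MET, INSR and IGF1R precursors, had a slope of -0.33 and did not pass. Of 6 tested genes of the IGF-binding list, IGFBP3 rose 5.53-fold between the pure libraries (slope 2.33 ± 0.19), and IGFBP6 (-3.00 ± 0.34), IGFBP7 (-2.19 ± 0.36) and IGF2R (-0.68 ± 0.17) fell. Of 6 tested co-receptors, PLXNB2 rose (0.72 ± 0.15), and CD44 (-1.26 ± 0.14) and ITGB4 (-0.49 ± 0.19) fell (SE, edgeR quasi-likelihood test). The ITGB4 call was lost in 7 of 13 alternatives, with a slope of -0.29 without the 100:0 library and -0.95 without the 0:100 library. The PLXNB2 call was lost without the 0:100 library and under library totals, and that of IGF2R with the length trend removed. Under library totals the splits were 3 rising and 2 falling proteases and inhibitors, 1 and 4 of the IGF-binding list, and 0 and 4 co-receptors.

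**Figure D5:**
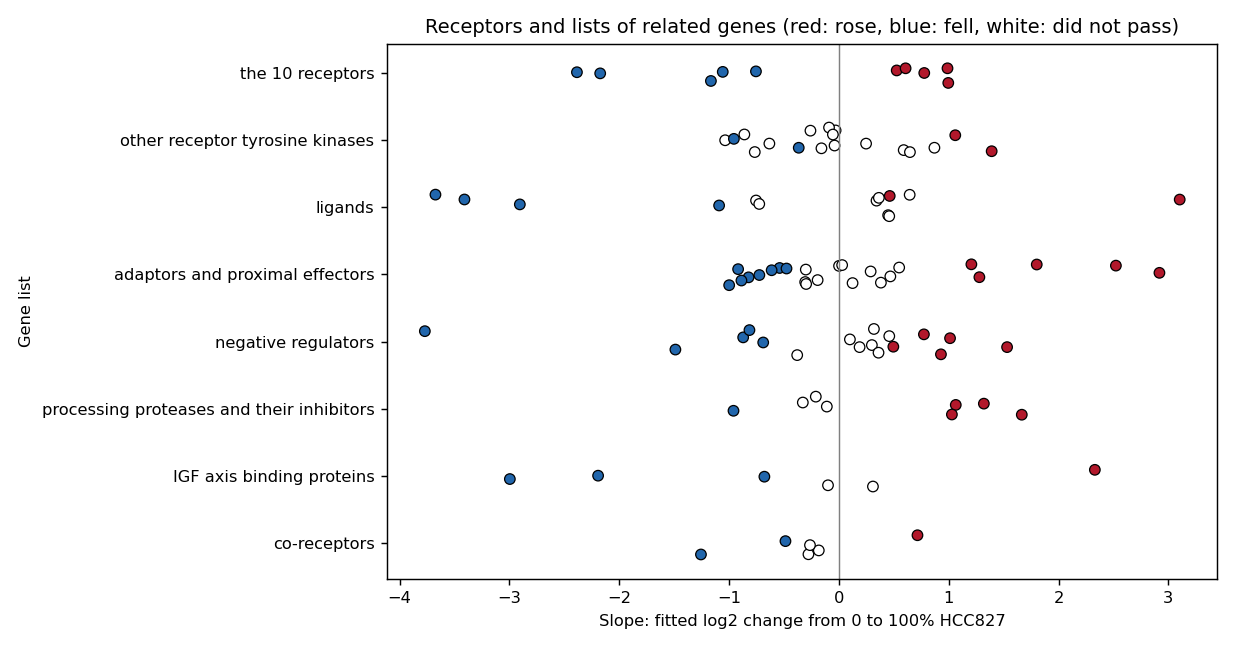
Slope of each tested gene (horizontal axis, fitted log2 change from 0 to 100% HCC827) by gene list (vertical axis; points are spread vertically only for legibility), red for genes that rose, blue for genes that fell and white for genes that did not pass. The 10 receptors lie between -2.39 and 1.00, while the ligands reach from -3.67 (COL1A2) to 3.10 (COL4A2), slopes of genes with a library at 0 that depend on the prior count.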

How the data were processed

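The authors deposited 1 table per library with an estimated count of reads per transcript, unscaled. Per the submitters' processing notes, minimap2 2.24, Salmon 1.9.0 and GRCh38 were used. The annotation release and the handling of strand are not given in the sources used here. Counts were rounded, 161 identifiers listed a second time were summed, and transcripts were paired with genes through GENCODE v44 (98.6% of human reads; 3675 identifiers unmatched). Of 199 receptor transcripts, 11 have another length in v44, and these hold 37.1% of receptor reads.

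Slopes on the HCC827 mass fraction were fitted over all genes or transcripts with edgeR 4.0.16 (R 4.3.3; TMM, glmQLFit, Benjamini-Hochberg, threshold 0.05). Isoform usage used diffSpliceDGE with Simes p-values. Standard errors were taken as slope/√F. DESeq2 1.42.0 and limma 3.58.1 served as alternatives. The scripts were tested on simulated data. Counting intervals are 95% (exact Poisson for counts, exact conditional binomial for ratios, Wilson for shares) and cover counting error only, since PCR copies could not be told apart. For ratios, a count under 3 was set to 3. The length trend was removed as an offset per library. Exon sequences are from the GENCODE v44 transcripts.

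The receptors and gene lists were chosen with earlier results of these data known. Named were all receptors, transcripts with at least 10% of a receptor's reads or a call, and of each list the 3 smallest adjusted p-values per direction; other list genes were named for their role.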

Additional observations from a re-analysis of the deposited data

How the results depend on the processing

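No paired analysis was possible because each ratio had 1 library. Of 138 receptor slopes refitted under an alternative, 128 kept direction and call, 10 lost the call and 0 changed sign. AXL and FGFR1 could not be tested with 10 reads required in every library. Fits that each left out 1 library called 8 to 10 receptors, 5 to 13 receptor transcripts and 0 to 0 genes for isoform usage. They called 2 to 3 other receptor tyrosine kinases (2 without 100:0, 50:50 or 0:100), 5 to 6 ligands, 9 to 14 adaptors, 7 to 10 negative regulators, 4 to 5 proteases and inhibitors, 4 to 4 IGF-binding genes and 2 to 3 co-receptors. DESeq2's Wald test called 5 receptor transcripts and 3 ligands, and the filter of 10 reads in every library left 2 ligands called. Co-receptor calls were 5 under that filter and 5 under limma-voom, against 3.

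Over all genes 6175 passed, 51.3% of them upward, against 4067 without 0:100 and, under library totals, 6887 with 26.3% upward. Library totals lowered the ratio of 0:100 to 100:0 to 1.06 for ERBB2, 1.77 for ERBB3, 1.06 for MET, 1.19 for EPHA2 and 1.41 for DDR1, because that scaling shifts every gene alike. FGFR1 exon 3 was held by 84.7% of reads over protein-coding transcripts alone. The cause of the other changes was not tested. Depth limits FGFR1 and AXL most, with 8 and 9 reads in the 0:100 library.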

Other observations

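How evenly the reads of a receptor were divided between its 2 most read transcripts differed widely. The ratio was 1.01 in DDR1, 1.02 in IGF1R, 1.03 in ERBB2 and 1.05 in INSR. In these 4 genes the difference nearest to the 3' end lay 3533, 8407, 4309 and 6683 bases from the end of the more read transcript. The ratio was 1.33 in FGFR1, 1.82 in ERBB3, 4.99 in MET and 6.08 in MST1R, and AXL had 182 and 14 reads, with that difference at 1453, 2787, 4162, 1444 and 3235 bases. In AXL the transcripts also end 1472 bases apart, and in FGFR1 10928 bases apart, both measured on the chromosome in GENCODE v44. The mean assigned transcript length was 2180 to 2579 bases over the libraries. Read lengths were not analysed here, and their part in these divisions was not tested.

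Values obtained by mixing the pure libraries were taken as exact, without the counting error of those libraries. Of the 30 receptor values in mixed libraries, 21 had a counting interval that held the value mixed by mass. In all, 13 lay above that value. With the HCC827 share of reads estimated from 10019 genes in place of the mass (32.7%, 55.4% and 78.2% in the mixed libraries), 20 of the 30 held it. By mass, the values furthest from it were 135% for FGFR1 at 75:25, 132% for EPHA2 at 25:75 and 127% for INSR at 75:25 on the high side, and 73.1% for MST1R at 25:75 on the low side. All 3 mixed libraries lay between the pure ones for ERBB2, ERBB3, AXL, IGF1R and DDR1, as in 47.0% of all genes tested.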
